A study of Mus musculus with 4 samples.

Results

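The genes described here encode the enzymes that remove superoxide and hydrogen peroxide and the oxidase subunits that make them, read in lung tumours of mice with and without Nrf2. They are the superoxide dismutases Sod1, Sod2 and Sod3, catalase (Cat), and the NADPH oxidase genes Cybb, Cyba, Ncf1, Ncf4 and Nox4, 9 genes of the 35275 listed, taken by name. Tumours came from Balb/c mice of genotype Nrf2 +/+ or Nrf2 -/-, and both groups had received the lung carcinogen vinyl carbamate at 16 mg/kg in 2 or 4 doses. Dissection followed 40 to 44 weeks after the carcinogen was first given, 3 to 4 tumours were pooled into each sample, and total RNA from 2 samples per genotype was sequenced. The labels do not give the animals' age, the deleted part of Nrf2, or how doses, weeks and tumour numbers were spread over the samples, and no untreated lung is part of the series. The protein NRF2, made from the gene Nfe2l2, is a transcription factor that switches on antioxidant and detoxification genes, and the comparison asks how tumours that lack it differ from those that have it.

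Superoxide dismutases turn superoxide into hydrogen peroxide, and catalase, a peroxisomal enzyme, turns hydrogen peroxide into water and oxygen. SOD1 works in the cytosol with copper and zinc, SOD2 in mitochondria with manganese, and SOD3 outside the cell, where it binds the matrix around vessels and airways. The phagocyte NADPH oxidase makes superoxide to kill microbes. It has a membrane core of the products of Cybb and Cyba, to which the products of Ncf1 and Ncf4, among others, and a Rac GTPase move on activation. NOX4, which also needs the product of Cyba, is found in vessel walls, fibroblasts and other tissue cells and releases mainly hydrogen peroxide.

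The sequences before 3 of these genes are shown because they differ in the letters that bear on the missing factor and in base composition. NRF2 binds the antioxidant response element with a small MAF partner, and the core of that element was searched as TGACNNNGC on both strands in the 250 bases before the RefSeq start (GRCm38.p6). Capitals mark this core in Sod1 (chr16:90220512-90220761, plus strand), CCAAT in either orientation in Cat (chr2:103485154-103485403, minus strand), and CCAAT and TGANTCA in Cybb (chrX:9469325-9469574, minus strand). TGANTCA is a loose form of the AP-1 element that allows any base at its centre, and the match in Cybb has A there. Each sequence is written 5′ to 3′ on the strand of its gene.
Sod1: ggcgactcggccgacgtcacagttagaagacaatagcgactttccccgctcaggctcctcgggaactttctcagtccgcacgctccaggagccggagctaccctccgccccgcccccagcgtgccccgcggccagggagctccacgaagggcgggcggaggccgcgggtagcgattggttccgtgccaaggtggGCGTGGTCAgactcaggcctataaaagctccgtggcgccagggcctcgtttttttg
Cat: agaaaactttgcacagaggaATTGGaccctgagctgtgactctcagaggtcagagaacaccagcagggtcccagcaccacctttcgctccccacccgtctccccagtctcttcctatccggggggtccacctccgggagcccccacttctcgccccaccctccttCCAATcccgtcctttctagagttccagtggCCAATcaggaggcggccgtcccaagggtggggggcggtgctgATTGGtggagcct
Cybb: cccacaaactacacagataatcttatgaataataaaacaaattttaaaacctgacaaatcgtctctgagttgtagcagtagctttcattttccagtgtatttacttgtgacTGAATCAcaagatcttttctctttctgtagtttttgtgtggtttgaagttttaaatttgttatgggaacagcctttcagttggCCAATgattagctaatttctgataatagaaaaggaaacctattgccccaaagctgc

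RefSeq windows were found for 7 of the 9 genes, and Ncf4 and Sod3 had no entry. The antioxidant response element core lay in 1 of the 7, that of Sod1, and in 10.16% of all 32851 windows of that length. In Sod1 it sits on the opposite strand, with its leftmost letter 56 bases before the start. CCAAT was in 4 of the 7 windows against 33.85% of all, and GGGCGG, the GC box, in 6 of the 7 against 32.74%. The Cat window held CCAAT 4 times, and TGANTCA was found in Cybb alone of the 7, against 6.75% of all windows. GAGGAA, a core bound by the myeloid factor PU.1, was in the windows of Cat and Sod2 and in 23.25% of all. The Sod1 and Cat windows were 66.4% and 62.0% G and C, with 26 and 9 CpG pairs. That of Cybb was 34.0%, with 1 CpG pair, where the median of all windows was 52.4%. These matches describe letters and are not binding sites. In the GENCODE annotation Cybb, Sod2 and Nox4 begin far upstream of their RefSeq starts, and Cat and Sod1 a few bases upstream.

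Values are FPKM, reads per kilobase of gene length and per 1e6 reads of the library. Levels are compared between genes and libraries on this scale, though the annotation behind the gene lengths is not stated. The libraries differed in summed FPKM, at 658100 and 690700 in wild type 1 and 2 and 717900 and 698000 in knockout 1 and 2. From the values, wild type 1 and 2 held 21.66 M and 21.22 M reads (1 M is 1e6), and knockout 1 and 2 held 17.98 M and 16.89 M. Nfe2l2 (chromosome 2, 75675513 to 75704641, minus strand, mm10) stood at 96.3 and 87.9 FPKM with intact Nrf2 but only at 3.66 and 2.96 FPKM in knockout 1 and 2, as their labels say (limma adjusted p = 0.000378). Alveolar type 2 cell genes marked all libraries as lung, with Sftpc, which encodes surfactant protein C, at 75160 to 90470 FPKM and Sftpb, which encodes surfactant protein B, at 10570 to 14460 FPKM. Wild type 2 and knockout 2 stood apart in stromal genes. The median deviation of 6 tested endothelial markers from the mean of the 4 libraries was -0.76 in wild type 2 and 0.53 in knockout 2 on the log2(FPKM + 1) scale, against 0.21 in wild type 1 and -0.06 in knockout 1. With bulk tumour RNA, fewer cells of a type and less RNA per cell cannot be told apart. For groups of this size the smallest p of an exact permutation test (two-sided) is 0.333, so p-values come from limma's model fitted over 13147 genes. They weigh a difference in means against the spread between pooled samples of a genotype, an estimate partly borrowed from the other genes.

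None of the 9 genes changed between the genotypes by this test: 0 of 9 had a limma adjusted p under 0.05, where 15 of the 13147 tested genes (0.114%) did, 10 higher and 5 lower in knockout tumours (6 and 5 after quantile normalization). At an unadjusted p under 0.05 limma gave 4 of the 9, Sod3, Ncf4 and Nox4 on the higher side and Cat on the lower, against 15.4% of all tested genes, and limma-voom on reads recovered from the values gave 0 called and 4 at that unadjusted level. Both knockout libraries lay above both wild-type libraries for 5 of the 9 (22.7% of all tested genes) and below them for 1 (25.4%). The median log2 difference over the 9 was 0.19, against -0.00 over all tested genes. All 9 passed the filter on low values.

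**Figure D1:**
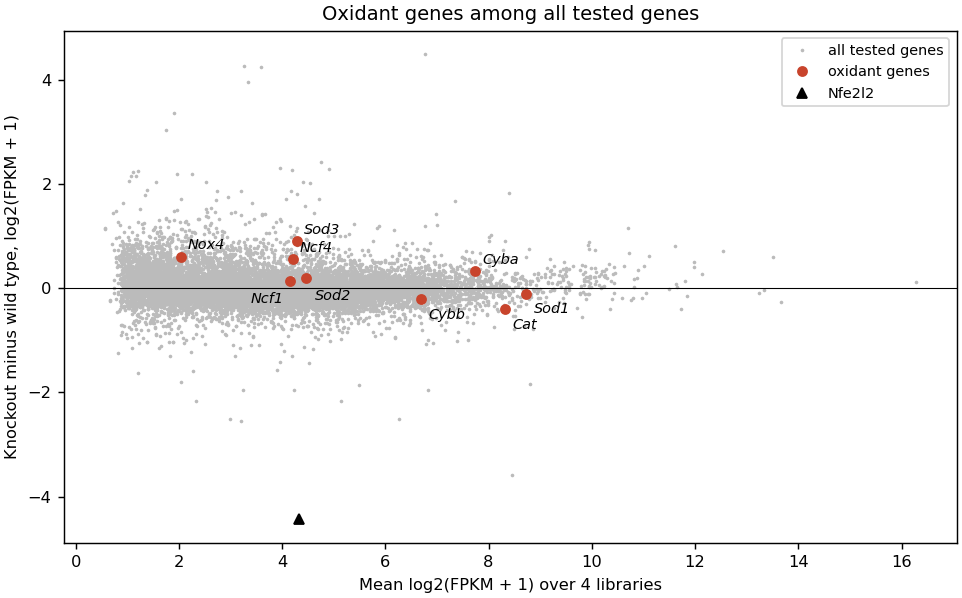
Difference between genotypes (knockout minus wild type, log2(FPKM + 1), y axis) against mean level over 4 libraries (x axis) for the 13147 tested genes (grey), with the 9 oxidant genes in red and Nfe2l2 as a black triangle. The 9 genes lie between -0.40 for Cat and 0.90 for Sod3, while Nfe2l2 lies at -4.44.

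Levels spanned a wide range, and the order was shared by all libraries at its top. Sod1 was the highest of the 9 in every library, and its mean level over the 4 libraries was above 98.7% of tested genes. Cat followed, then Cyba, then Cybb, and in each library these 4 kept that order. Sod2, Sod3, Ncf1 and Ncf4 came next at between 10.9 and 34.9 FPKM, and their ranges overlapped. Nox4 was lowest in every library, at 1.71 to 4.54 FPKM.

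**Figure D2:**
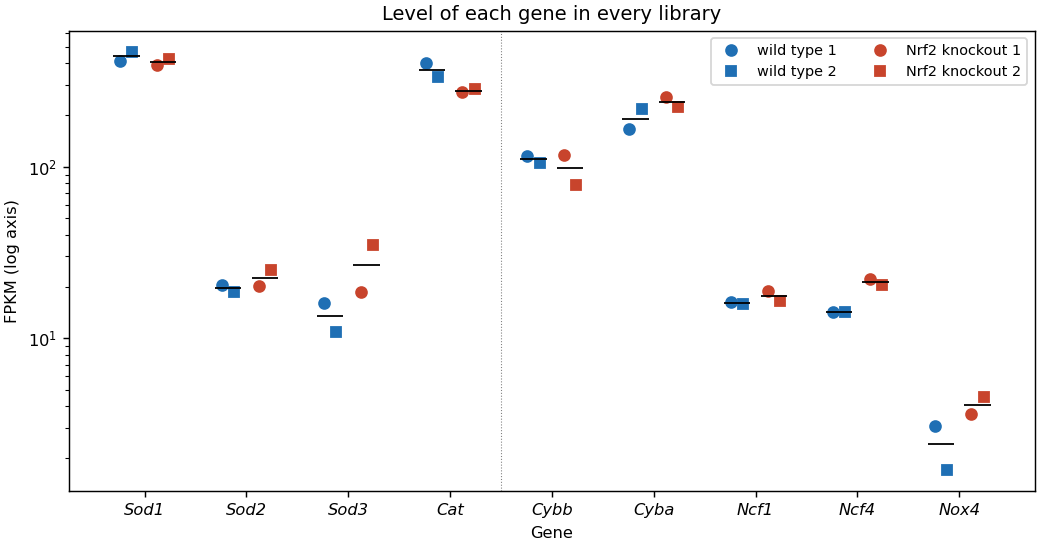
FPKM of each gene (log axis) in wild type 1 and 2 (blue circle and square) and Nrf2 knockout 1 and 2 (red circle and square), with group means as black bars and a dotted line between oxidant-removing genes and oxidases. Red and blue points interleave for Sod1, Sod2 and Cybb, and Ncf4 shows the tightest separation, from 14.2 and 14.3 to 22.2 and 20.5 FPKM.

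Sod1 (chromosome 16, 90220754 to 90226329, plus strand), the cytosolic dismutase, was at 414 and 466 FPKM in wild type 1 and 2 and at 393 and 425 in knockout 1 and 2. The groups overlapped, with knockout 2 between the wild-type libraries. Its log2 difference was -0.10 ± 0.13 (SE), with a 95% interval of -0.43 to 0.23 (limma adjusted p = 0.757). The depth behind these values was 4569 to 6382 reads per library. Gm8566, a gene with 465 bases at 97.849% identity to a Sod1 transcript, was listed at 0 in all libraries. Sod2 (chromosome 17, 13006846 to 13040063, plus strand), the mitochondrial dismutase, was at 20.5 and 18.6 FPKM in wild-type and 20.1 and 25.02 FPKM in knockout libraries, again with overlap. Its log2 difference was 0.19 ± 0.14 (SE), with an interval of -0.14 to 0.53 (limma adjusted p = 0.549). An annotated Sod2 transcript shares 3110 bases at 98.264% identity with a transcript of Rps6ka2, which reached 2.815 FPKM at most, and how shared reads were counted is not given in the sources used here.

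Sod3 (chromosome 5, 52363791 to 52371418, plus strand), the secreted dismutase, had the largest difference of the 9. It was at 16.1 and 10.9 FPKM in wild type 1 and 2 and at 18.7 and 34.9 FPKM in knockout 1 and 2. Both knockout libraries lay above both wild-type libraries, but knockout 1 was closer to wild type 1 than to knockout 2. The mean went from 13.5 ± 3.69 to 26.8 ± 11.5 FPKM (SD, n = 2 each), 1.98 times as high, and the log2 difference was 0.90 ± 0.31 (SE; limma adjusted p = 0.268). Single libraries decided its size and its call: the difference was 1.33 without knockout 1 (limma adjusted p = 0.0285), 0.46 without knockout 2 (0.478), 1.16 without wild type 1 (0.311) and 0.64 without wild type 2 (0.479). A block that crosses the replicate numbers, added after seeing the data, also called it (limma adjusted p = 0.0158).

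Because Sod3 is known from vessel walls, the stromal marker lists were read beside it. Its deviations from the 4-library mean were -0.19 and -0.71 in wild type 1 and 2 and 0.02 and 0.88 in knockout 1 and 2. Over 6 tested smooth muscle and pericyte markers the median deviations were -0.15, -0.39, -0.07 and 0.54 in the same order, and over 5 tested fibroblast markers 0.04, -0.59, -0.06 and 0.44. Wild type 2 was the lowest and knockout 2 the highest for Sod3 and for both lists. This was not particular to stromal lists. Sod2 and the medians of the neutrophil list and of the macrophage and monocyte list, described below, had the same lowest and highest libraries. Summed over all 7 listed genes, smooth muscle markers were at 100.7 and 84.1 FPKM in wild type against 109 and 169 FPKM in knockout libraries, with Rgs5, a pericyte gene, at 31.4 and 29.6 against 33.9 and 65.6 FPKM. Fibroblast markers summed to 330.5 and 225 against 324 and 530.2 FPKM, with the collagen gene Col3a1 at 108 and 67.3 against 109 and 221 FPKM. No listed gene of either kind was at 0 in all libraries and 0 were called. A limma unadjusted p under 0.05 was reached by 3 of 6 smooth muscle and 1 of 5 fibroblast markers tested. All were higher, against 15.4% of all tested genes in either direction. Without overlap, 4 smooth muscle and 3 fibroblast markers lay higher (22.7% of all tested genes). The part of these cells in the Sod3 values was not tested.

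**Figure D3:**
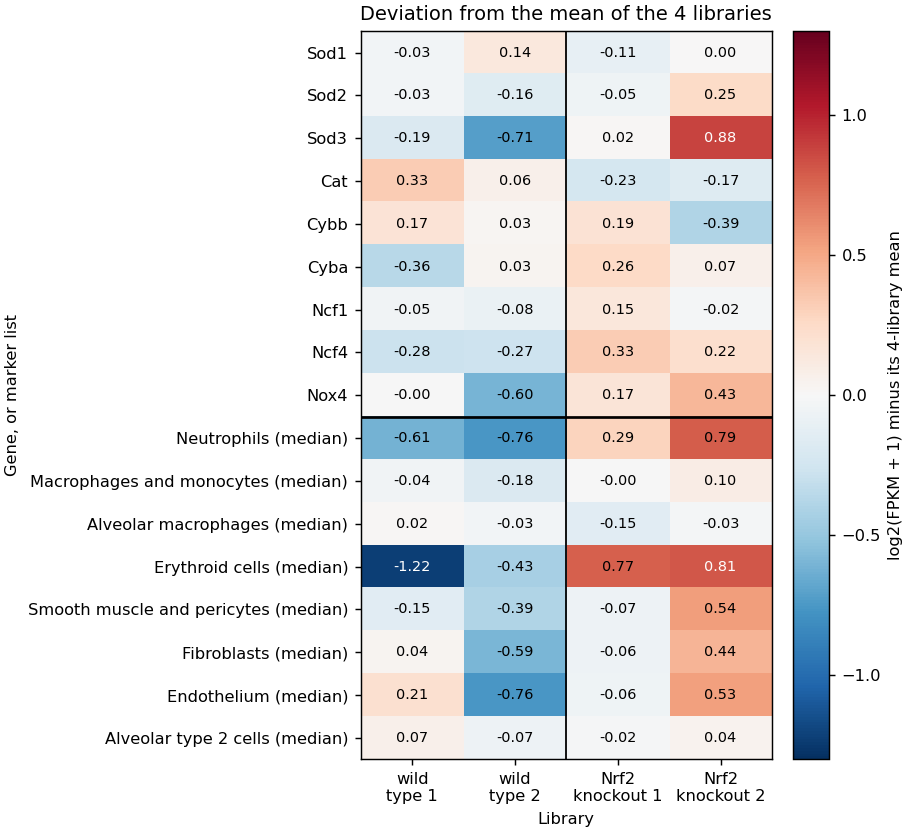
Deviation of log2(FPKM + 1) from the mean of the 4 libraries for each gene (upper rows) and the median deviation of each marker list over its tested members (lower rows), with libraries as columns and red above, blue below the mean. Sod2, Sod3 and Nox4 are lowest in wild type 2 and highest in knockout 2. So are the smooth muscle, fibroblast and endothelial rows, and also the neutrophil row and the macrophage and monocyte row. Cat is above its mean in both wild-type libraries.

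Transcripts of the cytosolic enzyme dominated the dismutases. Sod1 made up 91.9% and 94.0% of the summed FPKM of Sod1, Sod2 and Sod3 in wild type 1 and 2 and 91.0% and 87.6% in knockout 1 and 2. The share of Sod3 was 3.58% and 2.20% in wild type and 4.32% and 7.20% in knockout libraries, without overlap. The sum itself was 451 and 495 FPKM against 432 and 485 FPKM, so that the groups overlapped in total dismutase transcript level.

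Copper supply to these enzymes was read from 6 genes, all tested and 0 called, with a median log2 difference of -0.01. A limma unadjusted p under 0.05 was reached by 1 (15.4% of all tested genes, either direction). Ccs, the chaperone that loads copper into SOD1, was at 29.1 and 31.0 FPKM in wild-type and 28.4 and 30.6 FPKM in knockout libraries. Atox1, which hands copper to the secretory route, was at 367 and 495 against 532 and 498 FPKM. Atp7a, the pump that brings copper into that route, where SOD3 receives it, was at 12.7 and 9.16 FPKM in wild type and 6.59 and 7.995 FPKM in knockout. Its libraries did not overlap, with the knockout libraries lower, and its log2 difference was -0.51 ± 0.18 (SE; limma adjusted p = 0.275).

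Cat (chromosome 2, 103453849 to 103485160, minus strand) was at 402 and 333 FPKM in wild type 1 and 2 and at 271 and 284 FPKM in knockout 1 and 2. Catalase is thus the one gene of the 9 for which both knockout libraries lay below both wild-type libraries. The means were 368 ± 48.9 and 278 ± 8.82 FPKM (SD, n = 2 each), 24.5% lower in knockout tumours. The log2 difference was -0.40 ± 0.14 (SE), with an interval of -0.74 to -0.06 (limma unadjusted p = 0.029, adjusted p = 0.275). It was -0.26 without wild type 1, the highest library, and -0.53 without wild type 2. Counting error was small, at 8129 to 14772 reads per library. Relative to Sod1 in the same library, Cat was at 0.971 and 0.715 in wild type and 0.689 and 0.668 in knockout libraries.

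Catalase is abundant in red blood cells, so their genes were read beside it. The sum of erythroid markers was 246.5 and 489.7 FPKM for the wild-type tumours, against 1194 and 1094 FPKM for the knockout tumours. Of the 6 listed 5 were tested and 0 called. A limma unadjusted p under 0.05 was reached by all 5 (15.4% of all tested genes, either direction). All 5 tested members lay above both wild-type libraries in both knockout libraries (22.7% of all tested genes did). Among them were Hbb-bs and Hba-a1, which encode haemoglobin chains. Hbb-bs was at 125.9 and 248.9 FPKM in wild type and 681.7 and 588.1 FPKM in knockout, and Hba-a1 at 64.8 and 127.5 against 279 and 302 FPKM. The part of red cells in the Cat values was not tested. The median deviation of alveolar type 2 cell markers stayed within 0.07 of the 4-library mean in each library, but single markers moved both ways. Of 8 tested, 0 were called, and without overlap 2 lay higher (Napsa and Lyz2) and 2 lower (Sftpb and Abca3) in knockout. The shares over all tested genes were 22.7% and 25.4%. Napsa was at 216.7 and 160.5 FPKM in wild type against 259.7 and 472.8 FPKM in knockout, and Abca3 at 432.9 and 398.3 against 378.4 and 358.7 FPKM. The part of type 2 cells in the Cat values was not tested either.

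Peroxisomes hold catalase together with oxidases that make its substrate. Of 11 listed sources of hydrogen peroxide, 6 were tested and 0 were called. A limma unadjusted p under 0.05 was reached by 2, both lower (15.4% of all tested genes, either direction). Both knockout libraries lay below both wild-type libraries for 4 (25.4% of all tested genes), and the median log2 difference was -0.19. Acox2, a bile acid and branched-chain acyl-CoA oxidase, was at 5.61 and 4.69 FPKM in wild-type and 1.60 and 2.38 FPKM in knockout libraries. Its log2 difference was -1.05 ± 0.18 (SE; limma adjusted p = 0.12). Xdh, which encodes xanthine dehydrogenase, a mainly cytosolic enzyme whose oxidase form makes superoxide and hydrogen peroxide, was at 112 and 105.6 FPKM in wild type and 81.2 and 62.1 FPKM in knockout. Its log2 difference was -0.61 ± 0.15 (SE; limma adjusted p = 0.179, and 0.0452 without knockout 1).

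Peroxisome import genes gave differences of both signs. Of 14 listed and tested genes 0 were called and 0 had a limma unadjusted p under 0.05, 7 had a difference above 0, and the median log2 difference was 0.01. Without overlap, 2 lay higher (22.7% of all tested genes did) and 4 lower (25.4%). Pex5, the receptor that carries most matrix enzymes in, was at 25.1 and 27.8 FPKM in wild type against 23.4 and 23.6 FPKM in knockout. Pex16, a membrane assembly factor, was at 17.3 and 20.5 against 21.5 and 22.9 FPKM. Prdx5, a peroxiredoxin found in peroxisomes and mitochondria, was at 169.8 and 184 against 193 and 183 FPKM, with overlap.

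Cybb (chromosome X, 9435252 to 9487771, minus strand), the catalytic subunit of the phagocyte oxidase, was at 116 and 105 FPKM in wild type 1 and 2 and at 117 and 78.1 FPKM in knockout 1 and 2. Knockout 1 was the highest library and knockout 2 the lowest, so the knockout pair enclosed the wild-type pair. The log2 difference was -0.20 ± 0.20 (SE), with an interval of -0.68 to 0.28 (limma adjusted p = 0.662). Its sign rested on knockout 2, since it was 0.09 without that library. The gene had 1961 to 3736 reads per library.

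Cyba (chromosome 8, 122424776 to 122432930, minus strand), the membrane partner that stabilises both the product of Cybb and NOX4, was at 165 and 217 FPKM in wild-type and 254 and 222 FPKM in knockout libraries. The groups did not overlap, though wild type 2 and knockout 2 nearly met. Its log2 difference was 0.33 ± 0.17 (SE), with an interval of -0.08 to 0.73 (limma adjusted p = 0.409), and it was 0.52 without wild type 2 and 0.13 without wild type 1.

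Among the subunits that join from the cytosol, Ncf4 had the largest difference. Ncf4 (chromosome 15, 78244801 to 78262580, plus strand), which encodes the subunit that binds the phagosome membrane lipid phosphatidylinositol 3-phosphate, was at 14.22 and 14.26 FPKM in wild type and 22.2 and 20.5 FPKM in knockout. Within each genotype the libraries were close, and the genotypes did not overlap. Its mean over knockout libraries was 1.499 times the wild-type mean, and the log2 difference was 0.55 ± 0.11 (SE), with an interval of 0.29 to 0.81 (limma unadjusted p = 0.00204, adjusted p = 0.139). With each library left out in turn it lay between 0.50 and 0.61, and its adjusted p between 0.177 and 0.303. It was called only with a block that crosses the replicate numbers (limma adjusted p = 0.0276), an alternative added after seeing the data. These values rest on 223 to 294 reads per library. Reads were recovered at the shortest length that gives whole numbers, so true read numbers may be higher.

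Ncf1 (chromosome 5, 134220053 to 134229625, minus strand), which encodes the organiser that brings the cytosolic subunits to the membrane, was at 16.2 and 15.8 FPKM in wild-type and 18.8 and 16.5 FPKM in knockout libraries. The groups did not overlap, but wild type 1 and knockout 2 were close. The log2 difference was 0.13 ± 0.11 (SE), with an interval of -0.15 to 0.41 (limma adjusted p = 0.626). Exons of Ncf1 share 408 bases with Gtf2ird2 on the opposite strand, which was at 9.99 to 10.8 FPKM, and without stated use of strand the reads there cannot be told apart.

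Within a library, ratios between subunits do not depend on how libraries are scaled. Ncf4 was at 0.877 and 0.902 of Ncf1 in wild-type libraries and at 1.18 and 1.24 in knockout libraries, without overlap. Relative to Cybb, Ncf4 was at 0.122 and 0.136 in wild type and 0.189 and 0.262 in knockout. The ratio of Cyba to Cybb was 1.42 and 2.07 against 2.16 and 2.84, and that of Ncf1 to Cybb 0.140 and 0.151 against 0.160 and 0.212. All of these ratios were higher in both knockout libraries, and all were highest in knockout 2, where Cybb was lowest. An exact two-sided permutation test of any of them gives its smallest possible p, 0.333.

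**Figure D4:**
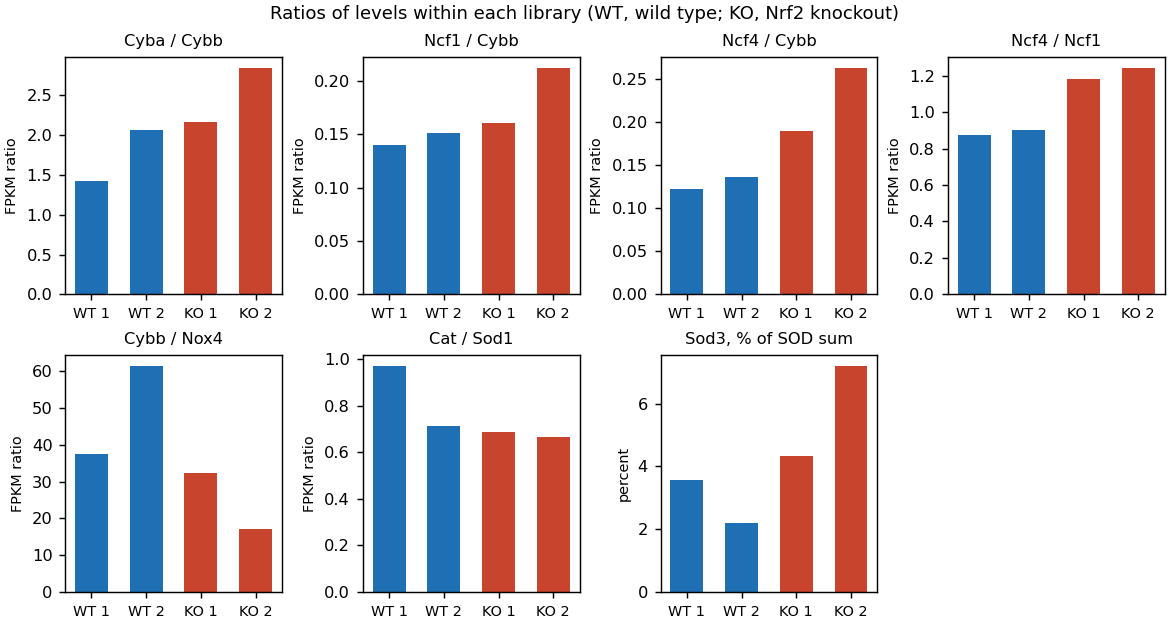
Ratios of FPKM within each library, one panel per pair (bars start at 0; blue, wild type 1 and 2; red, Nrf2 knockout 1 and 2), and Sod3 as a percent of summed dismutase FPKM. Ncf4 over Ncf1 goes from 0.877 and 0.902 to 1.18 and 1.24, while Cybb over Nox4 is lowest in knockout 2, at 17.2.

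The other partners of the oxidases held no gene that passed the test. Of 18 listed genes 11 were tested and 0 called, and 6 lay higher in both knockout libraries without overlap (22.7% of all tested genes). Their log2 differences ran from -0.13 to 0.27, with a median of 0.13, and none had a limma unadjusted p under 0.05. Rac2, the Rac GTPase of blood cells, was at 9.49 and 11.1 FPKM in wild-type and 11.2 and 13.3 FPKM in knockout libraries, and the widely expressed Rac1 at 221 and 209.6 against 199 and 225 FPKM. Rap1a, a GTPase found with the membrane core, was at 34.1 and 32.6 against 37.5 and 39.6 FPKM. Hvcn1, the proton channel that balances the charge moved by the oxidase, was at 18.8 and 19.2 against 22.3 and 19.8 FPKM. Over the 38 tested genes of the oxidase, copper, peroxisome and phagocyte enzyme lists together, limma-voom likewise gave 0 calls and 3 genes at an unadjusted p under 0.05.

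**Figure D5:**
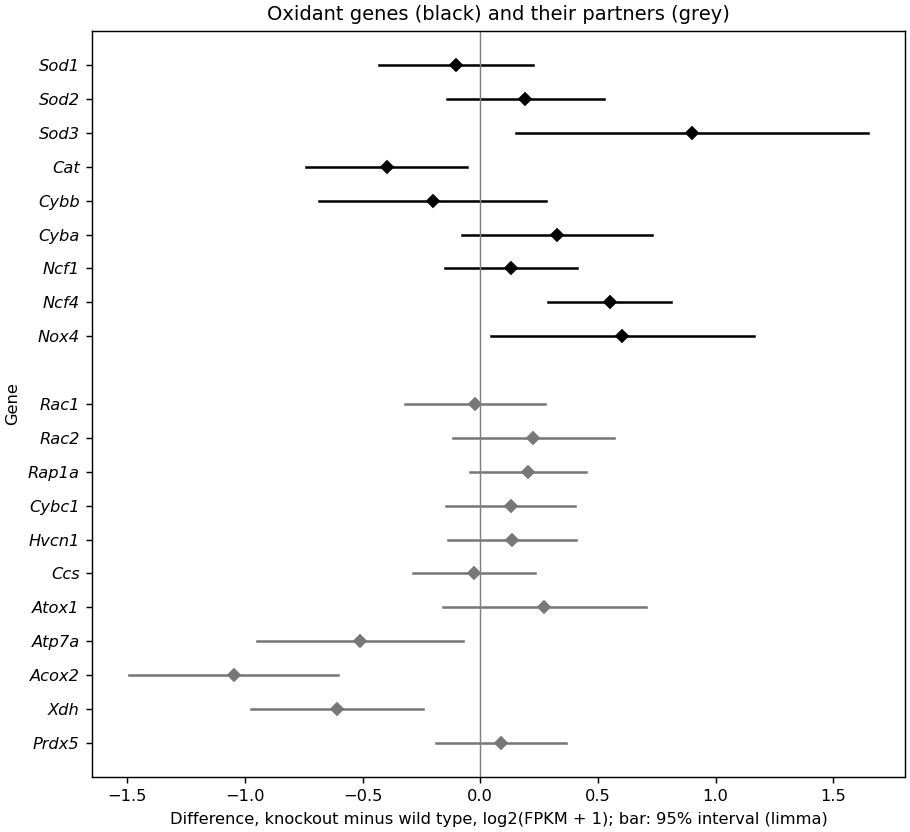
Difference between genotypes (knockout minus wild type, log2(FPKM + 1), x axis) for the 9 oxidant genes in black and for 11 partner genes in grey, with 95% intervals from limma, not adjusted for the number of genes. The 11 are part of 38 tested partner genes, of which 3 had a limma unadjusted p under 0.05. Those 3, Atp7a, Acox2 and Xdh, are shown because they were picked for large differences without overlap. Intervals of Sod3, Cat, Ncf4, Nox4, Atp7a, Acox2 and Xdh do not cross 0, though none of these genes passes at an adjusted p under 0.05.

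Neutrophils and macrophages carry this oxidase, and their markers were read beside it. Of 13 listed neutrophil markers 8 were tested, and 7 lay higher in both knockout libraries without overlap (22.7% of all tested genes). A limma unadjusted p under 0.05 was reached by 6, all higher (15.4% of all tested genes, either direction). Called were 3, all higher (0.114% of all tested genes, either direction). They were S100a8 and S100a9, which encode calprotectin, and Csf3r, which encodes the G-CSF receptor (limma adjusted p = 0.0108, 0.026 and 0.0255). S100a9 was at 7.78 and 11.3 FPKM in wild-type and 43.6 and 40.3 FPKM in knockout libraries, and the list summed to 33.3 and 32.5 against 106 and 129 FPKM. Elane, neutrophil elastase, was listed at 0 in all 4 libraries. Ly6g was near 0 throughout, at 0.072 and 0.148 FPKM in wild type and at 0 in both knockout libraries. Of 13 macrophage and monocyte markers, all tested, 0 were called. An unadjusted p under 0.05 in limma was reached by 4, each of them higher (15.4% of all tested genes, either direction). Without overlap 5 lay higher (22.7% of all tested genes), and 10 had a difference above 0. The median log2 difference was 0.08, and the list summed to 457 and 443 against 475 and 577 FPKM. Cd14 was at 147.5 and 156.6 FPKM in wild type and 142.6 and 162.3 FPKM in knockout, and the lysosomal gene Cd68 at 80.8 and 78.5 against 90.2 and 79.0 FPKM. The 4 genes at a limma unadjusted p under 0.05 were Ccr2, Plac8, C1qa and Ly6c2. Their log2 differences were 0.88, 0.86, 0.53 and 0.36 (limma adjusted p = 0.158, 0.108, 0.293 and 0.262). Ccr2, the chemokine receptor of inflammatory monocytes, was at 2.80 and 2.39 FPKM in wild-type and 4.63 and 6.75 FPKM in knockout libraries, and C1qa, a chain of complement C1q, at 59.98 and 62.8 against 72.3 and 109.2 FPKM. The part of either cell type in the values of Ncf4, Cyba and Cybb was not tested.

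Alveolar macrophage and B cell markers, whose cells also use this oxidase, gave 0 calls. A limma unadjusted p under 0.05 was reached by 5 alveolar macrophage genes (2 higher, 3 lower) and 2 B cell genes, both higher. The share over all tested genes was 15.4%, either direction. Of 10 alveolar macrophage genes, all tested, 2 lay higher and 3 lower without overlap (22.7% and 25.4% of all tested genes), and the sum was 887 and 789.8 FPKM in wild type against 918 and 1556 FPKM in knockout. Chil3, a chitinase-like lectin, was at 526 and 436 against 487 and 1029 FPKM, and the ribonuclease gene Ear2 at 139.7 and 148.6 against 216.3 and 220 FPKM. Marco, a scavenger receptor, had the largest difference of the list and in the other direction, at 20.9 and 15.4 FPKM in wild type and 3.78 and 1.34 FPKM in knockout, with a log2 difference of -2.50 ± 0.34 (SE; limma adjusted p = 0.0852). Pparg and Krt79 also had differences below 0, at -0.58 and -0.43 on the log2 scale (limma adjusted p = 0.14 and 0.303). The second gene on the higher side, beside Ear2, was Fabp4, a fatty acid carrier, at 41.8 and 34.3 against 62.9 and 121.9 FPKM. The sum of B cell markers was 28.4 and 30.6 against 41.1 and 30.3 FPKM, with 4 of 5 tested. Cd79b, a chain of the B cell receptor, was at 15.9 and 18.9 against 20.3 and 16.3 FPKM, and the coreceptor gene Cd22 at 10.3 and 9.42 against 12.5 and 8.75 FPKM.

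Of 4 listed genes for phagocyte enzymes that use or add to these oxidants, only Nos2 passed the filter on low values. Transcripts of the others were at or near 0, and protein was not measured. Mpo, myeloperoxidase, was listed at 0 in 3 of the libraries and at 0.0428 FPKM in knockout 1, and Lpo at 0 in all 4. Epx, eosinophil peroxidase, was listed at 0 in 3 libraries and at 0.495 FPKM in knockout 2. Nos2, the inducible nitric oxide synthase, was at 1.41 and 0.888 FPKM in wild-type and 0.995 and 1.47 FPKM in knockout libraries, with overlap.

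Nox4 (chromosome 7, 87246096 to 87398710, plus strand) was the sole catalytic subunit besides Cybb above 1 FPKM in any library. It was at 3.09 and 1.71 FPKM in wild type 1 and 2 and at 3.62 and 4.54 FPKM in knockout 1 and 2. Both knockout libraries were higher, and wild type 2 stood lowest. Its knockout mean was 1.70 times the wild-type mean, and the log2 difference was 0.60 ± 0.23 (SE), with an interval of 0.04 to 1.16 (limma adjusted p = 0.299). The difference was 0.31 without wild type 2 and 0.90 without wild type 1, and reads numbered 93 to 197 per library. The stromal lists given beside Sod3 were likewise lowest in wild type 2 and highest in knockout 2, as were endothelial markers, which summed to 130.4 and 67.96 FPKM in wild type against 108.5 and 175.7 FPKM in knockout, with Pecam1 at 43.7 and 22.0 against 35.6 and 69.4 FPKM and Cdh5, the vascular cadherin gene, at 25.9 and 11.6 against 19.1 and 29.5 FPKM. Of 6 tested endothelial markers 0 were called. The neutrophil list and the macrophage and monocyte list had the same lowest and highest libraries. The part of any of these cells in the Nox4 values was not tested. Cybb stood 37.5 and 61.5 times as high as Nox4 in wild-type libraries and 32.4 and 17.2 times in knockout libraries.

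Other catalytic subunits of the family were scarcely detected. Nox1 was at 0.0979 and 0.0666 FPKM in wild type and 0.0393 and 0.126 FPKM in knockout, and Nox3 was listed at 0 in all libraries. Duox1 and Duox2, the dual oxidases of airway and thyroid epithelium, reached 0.0562 and 0.115 FPKM at most.

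Genes with the most similar profiles over the 4 libraries were named for Cat and Cybb, by the root mean square distance between deviations of log2(FPKM + 1) among 12987 candidates. For Cat these were Col4a3bp (0.0093), Gm16536 (0.0106) and Parp4 (0.0144). For Cybb they included Auts2 (0.0206) and 9930012K11Rik (0.0288). With only 4 libraries and this many candidates, near matches of this kind say little about any single gene.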

How the data were processed

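Total RNA of 4 pooled lung tumour samples was sequenced, and groups follow the sample titles. The deposited values are FPKM per Ensembl gene, as the values show: multiplied by a whole-number length, they become whole reads times a constant of each library. The build mm10, TopHat2 and DESeq2 appear, without versions or what each was used for, per the submitters' processing notes. Which counter, annotation and filters were used, and whether strand was, is not stated in the sources at hand. Symbols matched 34490 of 35275 identifiers, and coordinates (counted from 1) are from GENCODE M21 on GRCm38, the assembly of mm10.

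The comparison used log2(FPKM + 1), a scale that understates changes of low genes, and limma (version 3.58.1, R 4.3.3) with an intensity trend and Benjamini-Hochberg adjustment over 13147 genes at 1 FPKM or more in at least 2 libraries. A call needs an adjusted p under 0.05. There were 2 residual degrees of freedom, beside 4.12 from the prior. Reads were recovered for 21601 of 21601 genes above 0, at an annotated length for 5488 and otherwise at the smallest length giving whole reads, with a tolerance of 0.0002 reads plus a share of 2e-08 and file rounding. Both steps were tested on simulated data. Reads carry no molecular identifiers.

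The 9 genes and the lists were chosen with earlier results of these data known. Named from the lists were fixed key genes, called genes, up to 3 per pathway list with the largest differences and no overlap, and the 2 most abundant of each marker list. A few genes that this rule names are not reported here. Noticed afterwards and named for that were Lpo, Epx, Nox3, Ly6g, Elane, Ccr2, Plac8, C1qa, Ly6c2, Marco, Pparg, Krt79, Fabp4, Napsa, Lyz2 and Abca3. Alternatives were another normalization, filters, pseudocounts, the variance prior, a replicate block, each library left out, a looser threshold and limma-voom. Protein sequences were not used here.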

Additional observations from a re-analysis of the deposited data

How the results depend on the processing

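The direction of the difference held for Sod1, Sod2, Sod3, Cat, Cyba, Ncf1, Ncf4 and Nox4 under each alternative run, including FPKM rescaled to the same sum in each library, which was added after seeing the data. The log2 difference of Cybb ran from -0.49 (without knockout 1) to 0.087 (without knockout 2), where its sign turned. The number of the 9 genes called was 0 to 1 with each library left out (Sod3 without knockout 1) and 0 under every other alternative but the crossed block given below. Of the 38 tested partner genes 1 was called without knockout 1 (Xdh, lower, limma adjusted p = 0.0452) and 0 under every other alternative but that block, so the count ran from 0 to 1 with each library left out. The count over all genes moved more: 15 became 1 with no filter on low values, 8 with limma-voom on recovered reads, 65 at an adjusted p under 0.1, and 10 to 252 with each library left out (252 without knockout 1 and 55 without knockout 2). Leaving out a library gives a group of 1, assumed to vary like the other. Nox4 has no value with the filter at 5 FPKM. With the replicate number as a block, 0 of the 9 genes, 0 partner genes and 69 of all genes were called. Deviations from the genotype mean correlated across genes at -0.31 for libraries with the same number and at 0.31 for those with crossed numbers. With 2 libraries per genotype these values must mirror each other. They cannot show whether the numbers pair the samples. With the numbers crossed, an alternative added after seeing the data, a block gave 2 of the 9 genes (Sod3 and Ncf4, both higher, limma adjusted p = 0.0158 and 0.0276), 3 partner genes (Acox2, Atp7a and Xdh, all lower) and 848 of all genes. The cause of these moves was not tested. Recovered reads were fewest for Nox4 and Ncf4, at 93 to 294 per library, but where the shortest length giving whole reads was used, true numbers may be higher and their order may differ.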
